A study of Homo sapiens with 6 samples.

Results

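Genes left with few reads after SQLE knockdown in RKO cells included 4 keratin-associated protein genes of the hair shaft, the cornified layer gene FLG2, the inflammasome protease CASP1 and the plasminogen activator inhibitor SERPINB2. Among the 500 genes deposited for the comparison, 51 genes (10.2%) had a mean of at least 20 over the 3 shControl libraries, at least 1 shSQLE value under 10 and every shSQLE library below every shControl library. The conditions were met by 59 genes, of which 8 (chemokines, cytokines, C3 and others from a list of 15 names) were left out by name. The genes were chosen by these pseudo-counts themselves, so their levels and fold changes are given as a description, with no test. Pseudo-counts are read counts moved to a common library size, and from them the whole reads behind each value were recovered. Reads of a bulk library cannot tell fewer expressing cells from less RNA per cell.

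RKO is an established human colorectal carcinoma line. RNA-sequencing compared 3 libraries of cells with a control hairpin (shControl-1 to shControl-3, genotype WT) with 3 libraries of cells with a hairpin against SQLE (shSQLE-1 to shSQLE-3, genotype SQLE knockdown), all grown in serum-containing medium. SQLE encodes squalene epoxidase, an enzyme of the sterol pathway that turns squalene into its epoxide. The hairpins were delivered by lentivirus, the labels do not say which of the SQLE hairpins the libraries carried or whether the replicates were separate cultures, and the library names hold the unexplained tag Ctrl, whereas the study's text places the comparison after 5-FU treatment. SQLE itself had 6976, 6926 and 6958 pseudo-counts in shControl and 303, 296 and 307 in shSQLE, which is 4.35% of the shControl mean. The recovered reads on the 500 genes summed to between 117410 and 233404 per library, and the third shSQLE library was the smallest, with a relative library size of 0.797 against 0.924 to 1.13 for the other 5. These sums are not the sequencing depth, which is unknown because other genes' reads are not in the table. Of 12 intestinal epithelium markers only KRT20 was in the table, at 4.01, 4.44 and 13.6 in shControl and 0 in each shSQLE library, and of 18 leukocyte, fibroblast and endothelial markers only VWF was. The table holds genes past the authors' thresholds only, so a marker outside it says nothing of its level.

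Low expression of tissue-restricted genes outside their tissue is common in cancer cell lines. Such genes give few reads, so that counting error makes up much of their spread, and any decrease soon reaches a level at which single reads decide the value. Keratin-associated proteins cross-link the keratin filaments of the hair shaft, and their genes lie in clusters of similar copies. Inflammasome proteases and inhibitory receptors act in myeloid and other immune cells, while nephrin and synaptopodin are known from the podocytes of the kidney.

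The upstream sequences of 5 of the genes are shown as examples of windows that hold a searched motif, and were picked after the search. Most of the other promoters held none of the motifs. They are the 250 bases before the start of each gene in RefSeq on GRCh38.p14, written in the direction of the gene. Capitals mark matches on either strand to the AP-1 motif TGANTCA, the TATA box TATAAA or the NF-κB motif. The windows are chr17:41060115-41060364 (minus strand) for KRTAP2-3, chr17:40999907-41000156 (minus strand) for KRTAP3-2, chr1:152360007-152360256 (minus strand) for FLG2, chr18:63887455-63887704 (plus strand) for SERPINB2 and chr5:55173178-55173427 (minus strand) for CDC20B.
KRTAP2-3: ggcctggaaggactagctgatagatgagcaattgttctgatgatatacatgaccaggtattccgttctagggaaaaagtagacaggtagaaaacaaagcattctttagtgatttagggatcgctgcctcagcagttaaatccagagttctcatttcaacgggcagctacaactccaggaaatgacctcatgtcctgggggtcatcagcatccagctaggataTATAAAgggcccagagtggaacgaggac
KRTAP3-2: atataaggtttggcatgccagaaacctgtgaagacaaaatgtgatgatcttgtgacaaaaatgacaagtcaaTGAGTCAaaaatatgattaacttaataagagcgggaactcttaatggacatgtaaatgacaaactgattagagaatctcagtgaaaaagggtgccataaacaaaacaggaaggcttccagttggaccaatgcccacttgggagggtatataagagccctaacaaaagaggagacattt
FLG2: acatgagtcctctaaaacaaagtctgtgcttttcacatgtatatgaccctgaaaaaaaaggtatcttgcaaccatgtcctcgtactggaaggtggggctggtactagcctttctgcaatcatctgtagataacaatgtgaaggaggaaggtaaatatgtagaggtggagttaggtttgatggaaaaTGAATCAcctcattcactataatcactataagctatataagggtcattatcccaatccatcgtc
SERPINB2: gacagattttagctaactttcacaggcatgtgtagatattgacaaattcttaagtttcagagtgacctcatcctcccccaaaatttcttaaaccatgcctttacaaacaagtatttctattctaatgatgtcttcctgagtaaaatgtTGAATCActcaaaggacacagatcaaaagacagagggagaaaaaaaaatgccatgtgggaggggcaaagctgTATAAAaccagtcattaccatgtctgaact
CDC20B: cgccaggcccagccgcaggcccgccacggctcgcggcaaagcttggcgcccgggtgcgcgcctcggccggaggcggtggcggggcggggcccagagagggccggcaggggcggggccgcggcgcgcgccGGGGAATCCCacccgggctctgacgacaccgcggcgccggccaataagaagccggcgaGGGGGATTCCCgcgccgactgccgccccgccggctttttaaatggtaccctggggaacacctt

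KRTAP2-3 and SERPINB2 had a TATA box beginning 28 and 30 bases before the start. KRTAP21-2 had this box 27 bases before its start and again 82 bases before it, while the box lay 89 bases before the start in KRTAP4-9 and 105 in LIPH. Distances are counted from the RefSeq start, and the start in GENCODE release 29 can differ. For KRTAP4-9 it is 41105332, inside the RefSeq window that ends at 41105388. The AP-1 motif lay 178 bases before the start in KRTAP3-2, 64 in FLG2, 102 in SERPINB2 and 117 in LDB3. CDC20B held 3 NF-κB matches, 2 of which overlap, and DRD4 held 1 at 25 bases before its start, while the match in HES1 lay after the start. A promoter of 300 bases, which adds 50 bases after the start, was found for 40 of the 51 genes. The NF-κB motif was present in 3 of these 40 (7.5%) and in 5.72% of all 27305 promoters, the AP-1 motif in 4 (10%) and in 7.76%, and the TATA box in 5 (12.5%) and in 12%. These shares are a description of letters in the windows.

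In shControl the 51 genes had means between 20.1 and 138 pseudo-counts, with a median of 27.6, and 40 of them lay under 40. Their recovered reads ran from 12 to 334 in a shControl library and from 0 to 35 in a shSQLE library. Summed over the genes, the pseudo-counts were 1807, 1759 and 2027 for shControl and 515, 448 and 449 for shSQLE. These sums had means of 1865 ± 143 and 471 ± 38.5 (SD, n = 3 each), so that 25.3% of the summed level was left, or 26.3% without SLX1B. The level left in single genes ran from 3.11% to 48.1% of shControl, with a median of 29.7%, beside a median of 28% over all 382 genes of the table that were lower in shSQLE. It was under 10% in 7 genes, from 10% to under 25% in 14 and from 25% to under 50% in 30. The median log2 fold change on log2(pseudo-count + 1) was -1.79 over the 51 genes, beside -1.67 over the lower genes and -1.39 over all 500.

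**Figure D1:**
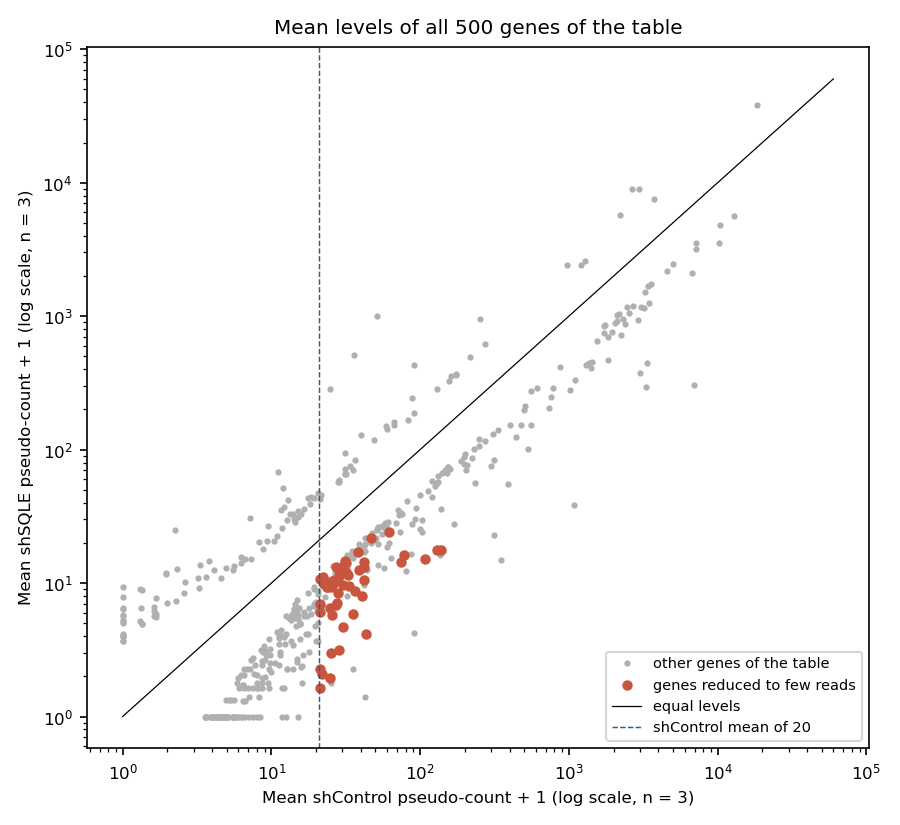
Mean shControl against mean shSQLE pseudo-count + 1 of the 500 genes on log axes, with n = 3 libraries per mean. The 51 genes (red) lie right of the shControl mean of 20 (dashed line) and below the line of equal levels, among other genes (grey) that had fewer reads in shControl, more in shSQLE or overlapping groups, or were left out by name.

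How few reads were left differed among the genes. In 17 genes every shSQLE value was under 10, in 14 genes 2 of the 3 values were, and in 20 genes only 1 was. No read at all was recovered in at least 1 shSQLE library for 7 genes (CASP1, HECW2, KRTAP2-3, KRTAP3-2, KRTAP21-2, FLG2 and NECTIN4), and no gene was without reads in all 3. The lowest shControl value was at least 2 times the highest shSQLE value in 26 genes and less than 1.5 times in 17. All 51 genes meet the condition of groups that do not overlap by their choice, and 68% of the 500 genes have every shSQLE library below every shControl library. Limma, fitted over the 473 genes with enough signal, called 71.9% of them lower at an adjusted p under 0.05 and a log2 fold change of -1 or lower, and 50 of the 51 were among them, with GNG13 the exception. Since the choice used the same contrast, nothing is read from either count.

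**Figure D2:**
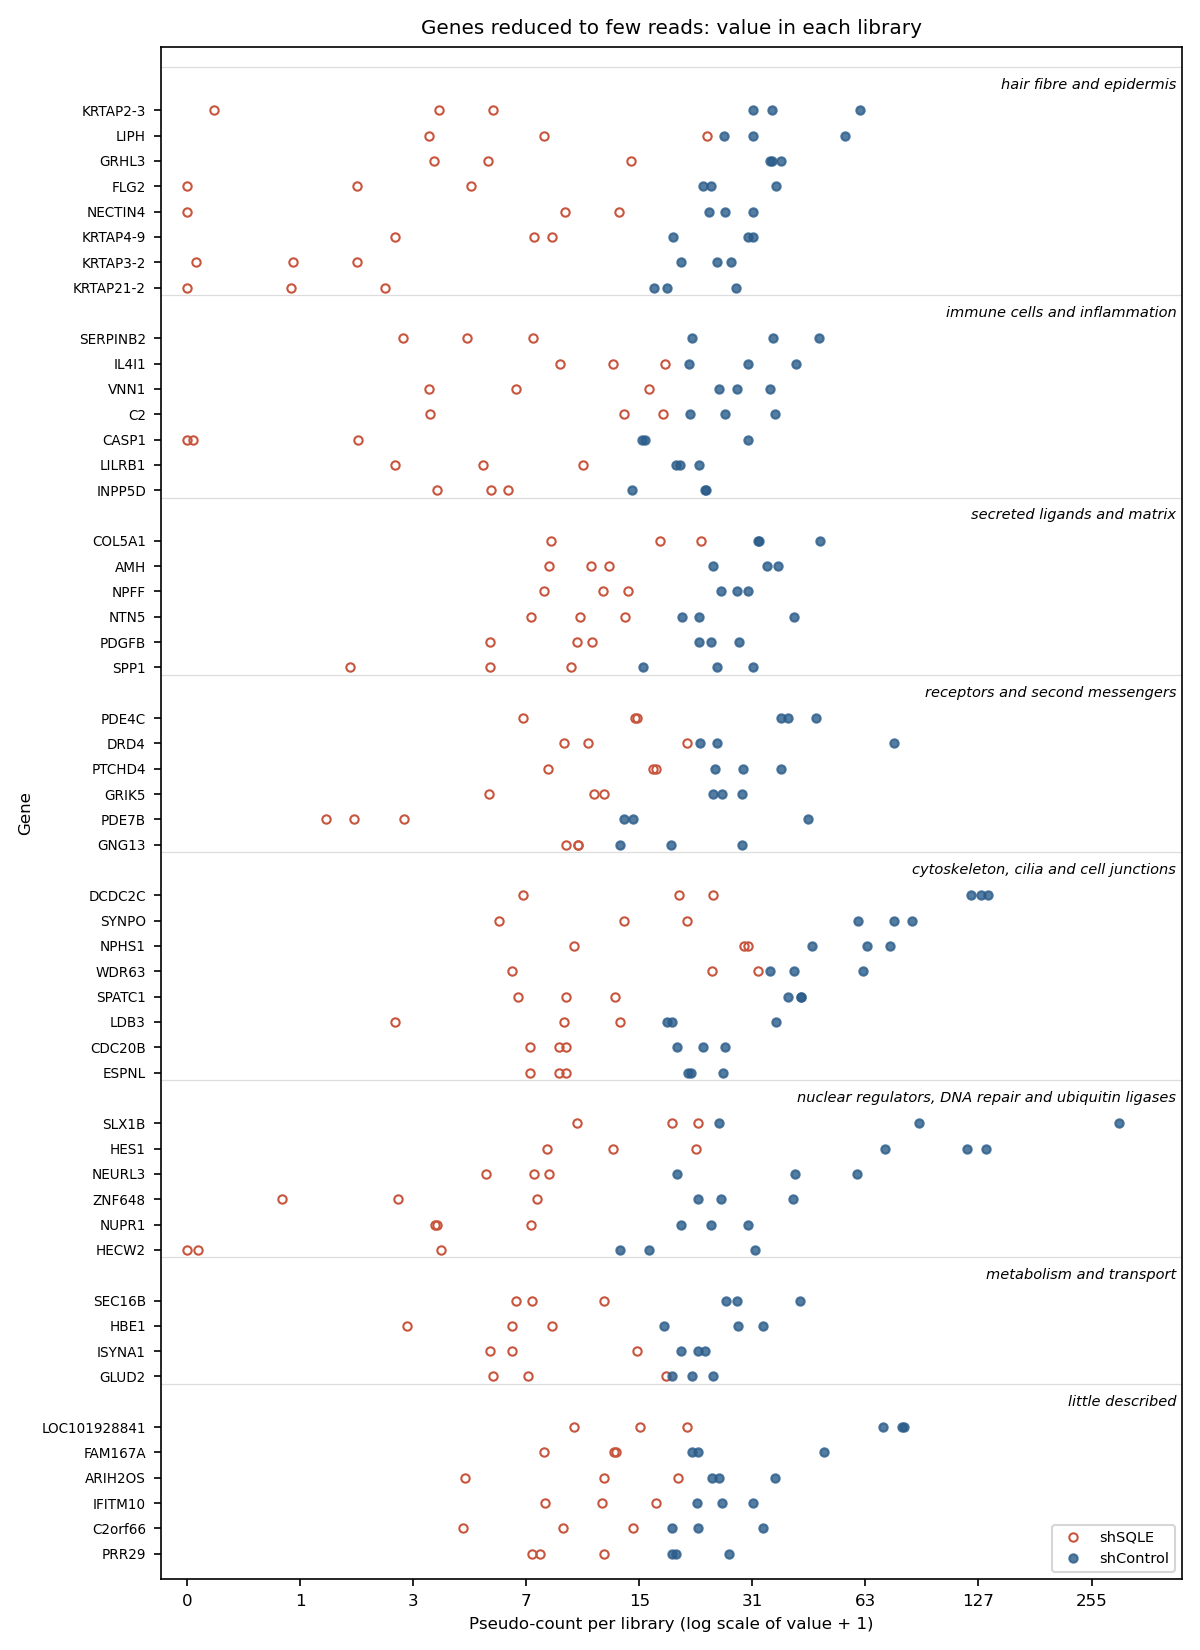
Pseudo-count of each of the 51 genes in the 3 shControl (filled blue) and 3 shSQLE (open red) libraries, on a log scale of value + 1, ordered by function. Every red point lies left of every blue point of its gene, with a narrow gap in WDR63, GLUD2 and DRD4 and a wide one in KRTAP3-2, CASP1 and KRTAP21-2.

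Genes grouped by hand under hair fibre and epidermis (KRTAP2-3, KRTAP3-2, KRTAP4-9, KRTAP21-2, FLG2, GRHL3, LIPH and NECTIN4) had a median of 14.7% of their shControl level left, and 6 of the 8 had under 25%. SERPINB2, which keratinocytes also make, was placed with the immune genes. KRTAP2-3, a keratin-associated protein of the hair shaft, had 35.1, 61.0 and 31.2 pseudo-counts in shControl and 5.53, 3.69 and 0.177 in shSQLE. Its means were 42.4 ± 16.2 and 3.13 ± 2.72 (SD, n = 3 each), a fold of 13.5 with a counting interval of 6.62 to 26.8 (95%, exact, from the summed reads). The gap between the groups was wide, with 35, 57 and 36 reads in shControl and 6, 4 and 0 in shSQLE. LIPH, a lipase that makes lysophosphatidic acid and is needed by the hair follicle, had 31.1, 55.6 and 25.9 in shControl and 23.2, 3.42 and 7.94 in shSQLE. The first shSQLE library of LIPH came close to shControl, and without it the fold went from 3.26 (interval 2.15 to 4.77) to 6.60. GRHL3, a transcription factor of epidermal barrier formation, had 37.1, 34.7 and 35.2 in shControl, the tightest spread of all 51 genes, and 5.33, 3.55 and 14.2 in shSQLE.

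The other genes placed in this group are given because of their values. KRTAP3-2 had 27, 18 and 28 reads in shControl and 2, 1 and 0 in shSQLE, a fold of 25.4 with a counting interval of 7.86 to 119. KRTAP21-2 had 18, 26 and 19 reads in shControl and 1, 0 and 2 in shSQLE, a fold of 19.2 with an interval of 6.74 to 103. FLG2, filaggrin-2 of the cornified layer, had 36, 22 and 26 reads in shControl and 0, 2 and 4 in shSQLE, a fold of 12.7 with an interval of 6.06 to 38.5. For these 3 genes the upper bound lies far from the fold because 3, 3 and 6 shSQLE reads decide it. KRTAP4-9 kept 23.0% and NECTIN4, an adhesion molecule of epithelia, kept 27.4%, with 10, 0 and 11 reads in the shSQLE libraries. Several folds of this group moved by more than 1.5 times when 1 shSQLE library was left out. Without shSQLE replicate 1 the fold was 22 for KRTAP2-3 and 49.4 for KRTAP3-2, the latter on 1 remaining read (interval 7.85 to 1807). Without shSQLE replicate 3 it was 8.04 for GRHL3, 5.90 for NECTIN4, 30.2 for FLG2 (2 remaining reads, interval 8.12 to 254) and 46.7 for KRTAP21-2 (1 remaining read, interval 7.86 to 1822).

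By position in GENCODE release 29 on GRCh38, KRTAP3-2, KRTAP2-3 and KRTAP4-9 lie within 107 kb on chromosome 17, from 40999193 to 41106488. This stretch holds 14 protein-coding genes, all of them keratin-associated protein genes, of which 5 were in the table. The other two, KRTAP4-7 and KRTAP4-8, had shControl means of 8.24 and 16.1 and shSQLE means of 1.88 and 3.14, and so stayed under the mean of 20. KRTAP21-2 lies apart, on chromosome 21 from 30746794 to 30747233. The copies are similar, since 39.7% of the 50-base stretches of KRTAP2-3 also occur in another gene (mostly KRTAP2-4), 29.9% of those of KRTAP4-9 (KRTAP4-11) and 12.3% of those of KRTAP3-2 (KRTAP3-3), while KRTAP21-2 shares none. How the counting treated reads of similar copies is not given in the sources used here, so the levels of the first 3 are uncertain.

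**Figure D3:**
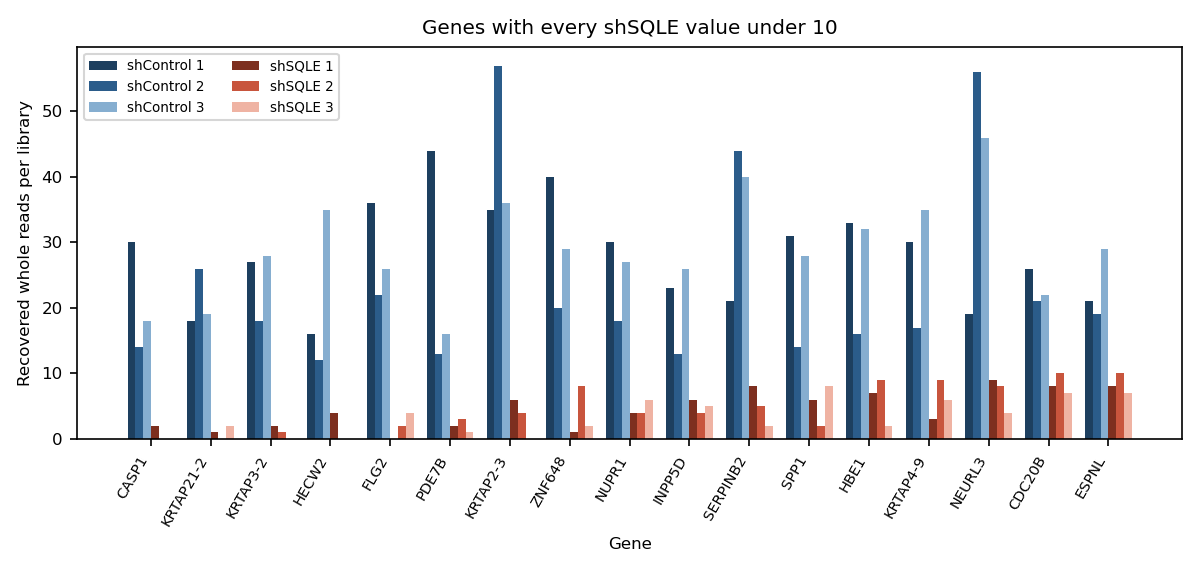
Recovered whole reads per library of the 17 genes in which every shSQLE value is under 10, ordered by their summed shSQLE reads. Blue bars are the 3 shControl and red bars the 3 shSQLE libraries; CASP1, with 2 reads in all of shSQLE, stands first, and CDC20B and ESPNL, with 8, 10 and 7 reads each, stand last.

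Genes known from immune cells and inflammation (CASP1, LILRB1, INPP5D, IL4I1, C2, SERPINB2 and VNN1) had a median of 29.4% left. SERPINB2, plasminogen activator inhibitor 2, which macrophages and keratinocytes make, had 21.1, 47.2 and 35.3 pseudo-counts in shControl and 7.35, 4.58 and 2.76 in shSQLE. Its means were 34.5 ± 13.1 and 4.90 ± 2.31 (SD, n = 3 each). IL4I1, an amino acid oxidase of myeloid cells, had 30.1, 40.7 and 20.7 in shControl and 8.86, 17.7 and 12.6 in shSQLE, so its groups came close to each other. VNN1, a pantetheinase at the cell surface, had 25.1, 28.2 and 34.7 in shControl and 3.40, 16.0 and 6.53 in shSQLE. Without shSQLE replicate 2, the highest of its group, the fold of VNN1 went from 3.40 to 5.90.

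CASP1, the inflammasome protease that cuts pro-interleukin-1β, is given because it kept the smallest share of its level, 3.11%. Its reads were 30, 14 and 18 in shControl and 2, 0 and 0 in shSQLE, a fold of 32.1 with a counting interval of 8.08 to 257. Without shSQLE replicate 1 no read was left in shSQLE, and the counting interval of the fold then began at 10.1 and had no upper bound. For 6.20% of its 50-base stretches there is a copy elsewhere, mostly in CARD16. INPP5D, a lipid phosphatase of blood cells, had 23.0, 14.3 and 23.1 in shControl and 5.44, 3.62 and 6.16 in shSQLE, and its mean of 20.1 was the nearest to the limit of 20. LILRB1, an inhibitory receptor for MHC class I, had 19.0, 19.5 and 22.1 in shControl and 2.57, 10.3 and 5.14 in shSQLE. Its fold went from 3.37 to 5.25 without shSQLE replicate 2, and 18.2% of its 50-base stretches occur in other genes, mostly LILRB2. C2, a serine protease of the classical complement pathway, kept 41.8%.

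Regulators in the nucleus, a DNA repair subunit and ubiquitin ligases (HES1, ZNF648, NUPR1, SLX1B, HECW2 and NEURL3) had a median of 12.8% left, and all 6 had under 25%. For SLX1B this rested on shControl replicate 3, without which its fold went to 3.35. HES1, the transcriptional repressor that Notch signalling induces, had 118, 71.3 and 133 pseudo-counts in shControl and 12.6, 8.08 and 21.7 in shSQLE. Its means were 108 ± 32.4 and 14.1 ± 6.91 (SD, n = 3 each), a fold of 7.62 with a counting interval of 5.75 to 11.3. With 118, 65 and 150 shControl reads HES1 was among the better measured of the 51 genes. NEURL3, an E3 ubiquitin ligase, had 19.1, 59.9 and 40.6 in shControl and 8.19, 7.37 and 5.24 in shSQLE.

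SLX1B, the nuclease subunit of the SLX1-SLX4 endonuclease, had the highest mean of the 51 genes but also the widest spread. Its shControl values were 25.1, 87.7 and 301, and its shSQLE values were 22, 9.89 and 18.6. The first shControl library was thus close to the shSQLE libraries, and without shControl replicate 3 the fold went from 8.20 (interval 6.42 to 11.8) to 3.35. A near-identical gene, SLX1A, holds most of the 96.7% of the 50-base stretches of SLX1B found elsewhere. SLX1B also overlaps the coding genes BOLA2 and BOLA2-SMG1P6, so its values are uncertain. ZNF648, a zinc finger protein, had 40, 20 and 29 reads in shControl and 1, 8 and 2 in shSQLE, and its fold went from 7.97 (interval 4.23 to 16.5) to 16.9 without shSQLE replicate 2, on 3 remaining reads (interval 6.14 to 91.6). HECW2, another E3 ubiquitin ligase, had 16, 12 and 35 reads in shControl and 4, 0 and 0 in shSQLE. It was 15.9-fold lower, with a counting interval of 5.75 to 58.5, and without shSQLE replicate 1 no read was left and the interval began at 10.3. NUPR1, a small chromatin protein that stress induces, kept 19.6%.

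**Figure D4:**
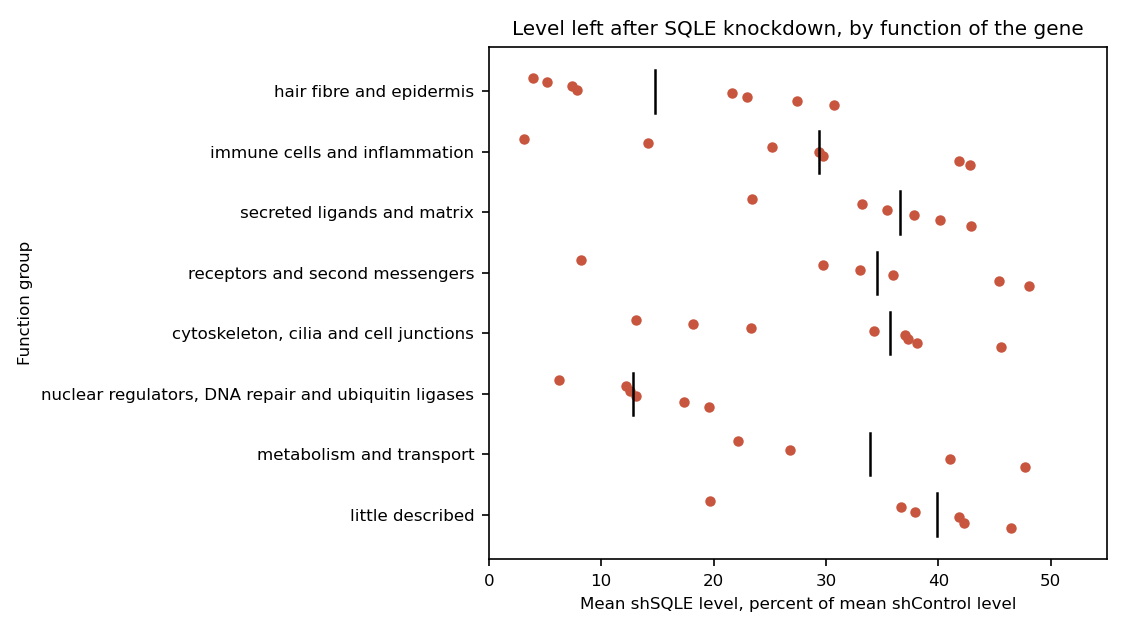
Mean shSQLE level as a percent of the mean shControl level for each of the 51 genes (points), by function of the gene, with the median of each group as a bar. The point of SLX1B, placed with the nuclear regulators, rests largely on shControl replicate 3. The medians of nuclear regulators (12.8%) and of hair and epidermis (14.7%) lie left of those of the other groups, which run from 29.4% to 39.9%; the groups were drawn up by hand and differ in the number of genes, and the differences between them were not tested.

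Genes of the cytoskeleton, cilia and cell junctions (SYNPO, NPHS1, LDB3, ESPNL, WDR63, DCDC2C, SPATC1 and CDC20B) had a median of 35.6% left. DCDC2C, a doublecortin-domain protein, had 121, 129 and 135 pseudo-counts in shControl and 6.86, 19.4 and 24.2 in shSQLE. Its means were 128 ± 6.94 and 16.8 ± 8.96 (SD, n = 3 each), a fold of 7.63 with a counting interval of 5.84 to 10.8. The groups were far apart, since its lowest shControl value was 5.01 times its highest shSQLE value. SYNPO, synaptopodin, an actin-binding protein of podocytes and dendritic spines, had 75.2, 84.1 and 60.3 in shControl and 13.6, 20.5 and 5.78 in shSQLE. NPHS1, nephrin of the podocyte slit diaphragm, had 45.1, 73.2 and 63.6 in shControl and 30.2, 9.71 and 29.4 in shSQLE, so that only its second shSQLE library was under 10, while the others also lay below shControl.

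Among the remaining genes of this kind, WDR63, a dynein intermediate chain of cilia, kept 45.6%, and its groups came close, with 34.7 as the lowest shControl and 32.2 as the highest shSQLE value. SPATC1, speriolin of the sperm centrosome, had 42, 39 and 44 shControl reads and 14, 10 and 5 shSQLE reads. CDC20B, known from multiciliated cells, and ESPNL, an espin-like actin-binding protein of sensory hair cells, kept 37.0% and 37.3%. Both had 8, 10 and 7 reads in the shSQLE libraries, although they lie on chromosomes 5 and 2 and neither shares a 50-base stretch with another gene. LDB3, a protein of the muscle Z-disc, kept 34.3%.

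Secreted ligands and matrix genes (PDGFB, AMH, SPP1, COL5A1, NTN5 and NPFF) had a median of 36.6% left. COL5A1, a chain of the fibrillar collagen type V, had 32.1, 47.3 and 32.4 pseudo-counts in shControl and 17.2, 22.3 and 8.33 in shSQLE. AMH, the anti-Müllerian hormone of the gonads, had 34.1, 24.1 and 36.4 in shControl and 10.9, 8.20 and 12.3 in shSQLE. NPFF, a neuropeptide precursor, had 28.1, 30.2 and 25.4 in shControl and 11.8, 13.9 and 7.92 in shSQLE. COL5A1, AMH and NPFF kept 42.9%, 33.2% and 40.1%, and each had its groups apart by less than a factor of 2. SPP1, osteopontin, a matrix protein and cytokine, kept 23.4%, with 6, 2 and 8 shSQLE reads, and its fold went from 4.27 (interval 2.58 to 8.25) to 6.65 without shSQLE replicate 3. PDGFB, a platelet-derived growth factor chain, kept 35.4%, and NTN5, a netrin, kept 37.8%.

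Receptors and second messenger genes (DRD4, GRIK5, GNG13, PDE4C, PDE7B and PTCHD4) had a median of 34.5% left. PDE4C, a phosphodiesterase that breaks down cAMP, had 37.1, 46.3 and 38.7 pseudo-counts in shControl and 14.6, 14.8 and 6.85 in shSQLE. DRD4, a dopamine receptor, had 75.1, 22.2 and 24.8 in shControl and 10.7, 9.06 and 20.5 in shSQLE. The first shControl library of DRD4 stood above the others, and without it the fold went from 3.03 to 1.75. PTCHD4, a patched-domain protein, had 37.1, 29.3 and 24.4 in shControl and 16.4, 16.7 and 8.14 in shSQLE. PDE7B, another cAMP phosphodiesterase, had 44, 13 and 16 reads in shControl and 2, 3 and 1 in shSQLE, and its fold went from 12.2 (interval 5.23 to 33.6) to 7.08 without shControl replicate 1. GNG13, a G protein subunit of taste and smell, had 29.1, 13.2 and 18.4 in shControl and 9.96, 9.18 and 10.0 in shSQLE and kept the largest share, 48.1%. GRIK5, a kainate receptor subunit, kept 36.0%.

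Genes of metabolism and transport (GLUD2, ISYNA1, SEC16B and HBE1) had a median of 33.9% left. SEC16B, which acts at exit sites of the endoplasmic reticulum, had 28.1, 41.8 and 26.2 pseudo-counts in shControl and 11.9, 7.31 and 6.53 in shSQLE. HBE1, the embryonic epsilon globin, had 33.1, 17.6 and 28.3 in shControl and 6.34, 8.38 and 2.84 in shSQLE. ISYNA1, the inositol-3-phosphate synthase, had 22, 19.6 and 23.0 in shControl and 14.8, 6.34 and 5.41 in shSQLE. The shSQLE libraries of ISYNA1 were uneven, and without replicate 1 its fold went from 2.44 to 3.66. GLUD2, a glutamate dehydrogenase, kept 47.7% and had the narrowest gap of the 51 genes, its lowest shControl value being 1.04 times its highest shSQLE value. Its fold went from 2.09 to 3.37 without shSQLE replicate 2, and 32.1% of its 50-base stretches occur elsewhere, mostly in GLUD1.

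The remaining 6 genes are little described (FAM167A, C2orf66, PRR29, ARIH2OS, IFITM10 and LOC101928841) and had a median of 39.9% left. LOC101928841 had 80.2, 78.9 and 70.3 pseudo-counts in shControl and 9.72, 20.5 and 15.1 in shSQLE, which were far apart. FAM167A had 21.1, 21.9 and 48.6 in shControl and 12.7, 12.9 and 7.92 in shSQLE. ARIH2OS, which lies opposite ARIH2, had 25.1, 24.0 and 35.7 in shControl and 19.3, 11.9 and 4.5 in shSQLE. PRR29 overlaps ICAM2, an adhesion molecule of endothelium and leukocytes, and the deposited description of the PRR29 row names this adhesion molecule. ICAM2 is itself in the table, at 147, 133 and 110 in shControl and 64.3, 63.6 and 59.3 in shSQLE. The row of either gene may hold reads of the other, since how reads in the overlap were assigned is unknown. A coding gene overlaps 18 of the 50 genes placed in GENCODE, and the sources used here do not say if reads were counted by strand. Among the 18 are IL4I1 (overlapped by NUP62 and ATF5 among others), C2 (CFB and ZBTB12 among others) and HBE1 (HBG2 and others).

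Values just inside and just outside the limits were close to each other. Inside the shControl mean of 20 lay INPP5D (20.1), GNG13 (20.2) and LILRB1 (20.2), and outside it lay ANKRD24 (19.7), CPA4 (19.6) and RNF103-CHMP3 (19.6). Inside the limit of 10 for the lowest shSQLE value lay SLX1B (9.89), LOC101928841 (9.72) and NPHS1 (9.71), and outside it lay EBI3 (10.1), PLA2G4C (10.3) and TMEM217 (10.5). EBI3 had 13.7, 10.1 and 10.2 in shSQLE against 73.2, 78.0 and 88.5 in shControl, so it was lower in shSQLE than several members and stayed out. A further 7 genes (CARNS1, CDH15, CYP2D6, PODNL1, RET, SPIB and TMEM238) met both limits but had overlapping groups.

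The shControl libraries differed from each other by a median coefficient of variation of 25.2% over the 51 genes, from 3.53% in GRHL3 to 105% in SLX1B. Counting error alone, taken from the recovered reads, would give a median of 18.8%. The 104 other genes with shControl means in the same range had a median of 19.4%, with 14% from counting. The highest shControl value fell in replicate 1 for 18 genes, in replicate 2 for 15 and in replicate 3 for 18. The lowest shSQLE value fell in replicate 1 for 11 genes, in replicate 2 for 21 and in replicate 3, the smallest library, for 19. The part of library size in the last count was not tested.

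**Figure D5:**
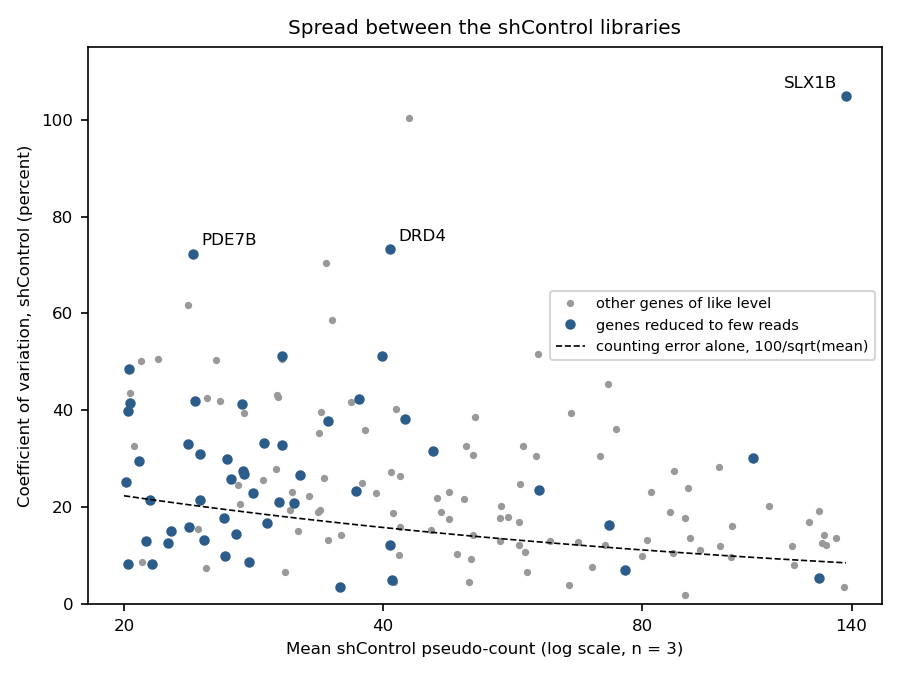
Coefficient of variation over the 3 shControl libraries against the mean shControl pseudo-count (log axis) for the 51 genes (blue) and 104 other genes of like level (grey), with the value that counting error alone gives (dashed). SLX1B (105%), DRD4 (73.3%) and PDE7B (72.3%) stand above the other blue points.

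The annotation in the deposited table and hand-written lists of tissue genes describe the same genes by other means. A cellular component was given for 43 of the 51 genes, and an extracellular term stood in 19 of them (44.2%), beside 40.1% of the 441 annotated genes of the table. A plasma membrane term stood in 11 (25.6%, beside 30.8%), and a term with the word immune in 4 of 38 genes with a biological process (10.5%, beside 7.28%). A process term with keratin in it stood in 0 of the 38 (beside 2.18% of 412), and the component term keratin filament in 1 of the 43, KRTAP3-2 (2.33%, beside 0.68%). PRR29 is counted among the 19 and the 11, and since its deposited description names the adhesion molecule ICAM2, its terms may be those of ICAM2. No test was made of these shares. The counts of list genes called lower stand beside 71.9% called lower over all genes tested, and nothing is called particular to a list. Of 57 genes of epidermis and squamous epithelium 7 were in the table, with 5 called lower, 0 called higher and SERPINB2 kept by the rule. Of 96 leukocyte genes 4 were in the table, with 3 called lower, 1 higher and 0 kept. Of 92 cytokine and growth factor ligands 14 were in the table, all 14 called lower and PDGFB kept. Of 67 connective tissue genes 10 were in the table, with 8 lower, 1 higher and 2 kept (COL5A1 and PDGFB). Of 37 liver and kidney genes 2 were in the table, both called lower, and NPHS1 was kept. No gene was kept from the other lists. Of 71 nervous system genes 2 were in the table, with 1 called lower, and of 46 muscle and heart genes 2, also with 1 lower. All 3 endothelial genes in the table (of 36) and both ERK output genes (of 37) were called lower. Of 52 intestinal genes 3 were in the table, with 2 lower and 1 higher. Of 44 germ line genes 1 was in the table and was called higher. SYNPO, FLG2, the keratin-associated genes and most others of the 51 stand on none of these lists.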

How the data were processed

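The study deposited 1 table of 500 genes for 6 RNA-sequencing libraries of RKO cells, 3 shControl and 3 shSQLE. For each library the authors deposited a signal (pseudo-counts), and beside it their own log2 fold change, p-value and adjusted p-value, none of which was used. The submitters' processing notes name Bowtie 0.12.2 and the mouse build mm8, although the cells are human; the counter, annotation and test are not given in the sources used here. All 500 genes had passed the authors' thresholds, so no result holds genome-wide. The study's text counts more changed genes than the table holds, and it does not state the thresholds. Library sizes and a dispersion of 0.00485 were fitted, under which negative binomial quantile adjustment of whole reads gave each of the 3000 deposited values to within 0.01. The relative library sizes are known, the depth is not. Where a fold has an interval, it is an exact 95% one from the summed reads and covers counting error only. Limma 3.58.1 in R 4.3.3 (mean-variance trend, log2(pseudo-count + 1), genes kept with 1 or more in 3 or more libraries, without covariates, Benjamini-Hochberg) was fitted over 473 genes for the counts of genes called and the background share, and was checked on simulated data. With 3 libraries against 3 these p-values measure the spread between libraries, which may be technical.

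The genes and lists were chosen with earlier results of these data known. By rule, values per library were given for the 3 genes with the highest shControl mean in each function group, any gene with all shSQLE values under 1 (there was none) and genes just inside the limits. Of the genes just outside the limits, library values are printed for EBI3 only. Further genes were named for their values, and the function groups were set once the names were known. Alternative limits, pseudocounts, filters, left-out libraries and a fit with the replicate number were tried. GENCODE release 29 (GRCh38) gave the positions of 50 of the 51 genes, and the longest transcript of each was compared with 206694 transcripts in 50-base stretches. Other steps ran in Python 3.11.15 (SciPy 1.17.1, pandas 2.3.3, NumPy 2.4.6, Matplotlib 3.10.9). The result of 1 further gene list is not reported here.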

Additional observations from a re-analysis of the deposited data

How the results depend on the processing

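The number of genes kept moved with the limits. It was 110 with a shControl mean of at least 10, 11 with at least 40, 17 with every shSQLE value under 10 and 23 with at least 1 shSQLE value under 5; dropping the condition on overlap gave 58. Without 1 library it was 44 to 57, of which 42 to 50 were among the 51, and 21 genes were kept in all 6 such sets. Applied to whole reads, an alternative chosen after seeing the data, the rule kept 52 genes, 44 of them shared. The median log2 fold change of -1.79 was -1.43 with a pseudocount of 5, was -1.95 with one of 0.1 and ran from -1.80 to -1.61 without 1 library (-1.61 without shSQLE replicate 2). The median spread of the shControl libraries was 0.354 as a standard deviation on the log2 scale. Genes of the table called lower by limma numbered 340, and 232 to 295 without 1 library, of which 40 to 47 were among the 51 in place of 50. They numbered 301 with a pseudocount of 0.1, 234 with 5, 349 without a filter, 228 with a minimum of 10 in 3 libraries, 346 without a fold threshold and 339 by limma-voom on the recovered reads, which was also added after seeing the data. The labels do not say that the replicate number marks a shared batch or day, so the numbers were not taken as pairs. Over all genes of the table, same-numbered libraries deviated together with correlations of 0.0704, 0.0403 and 0.0757. With the replicate block 333 genes and 49 of the 51 were called. The unknown depth and the few reads limit what single folds can show.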
